A study of Mus musculus with 52 samples.

Results

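Whether prostaglandin treatment and irradiation act on the same genes in bone marrow stroma was examined in 16 of the 52 libraries of the series, which form a design of 4 groups with 4 mice each. These are the stroma libraries in which the treatments vehicle and dmPGE2 were each combined with and without irradiation, among 32 stroma libraries in all. The quantity examined was the interaction, the log2 change with dmPGE2 in irradiated mice less the log2 change with dmPGE2 in non-irradiated mice. An interaction of 0 means that the joint change equals the sum of the 2 single changes on the log2 scale, and a value below 0 means that the joint change lies below that sum.

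RNA was sequenced from marrow cells enriched with magnets for cells without CD45 and Ter119, proteins on the surface of blood cells. The non-irradiated vehicle group received the injection vehicle and sham irradiation. The non-irradiated dmPGE2 group was labelled NI-PGE and received dmPGE2, a dimethyl analogue of prostaglandin E2 that is broken down slowly. The irradiated vehicle group and the irradiated dmPGE2 group, labelled Veh and PGE, received the same agents 30 min before total-body irradiation with 853 cGy, and marrow was taken 1 h after irradiation. Each group held 2 male and 2 female mice with 1 library per mouse. No gene was altered according to the labels, and the strain, the age of the mice and the dose of dmPGE2 are not given in the sources used here.

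The tumour suppressor p53 is a transcription factor that DNA damage stabilises, and its targets arrest the cell cycle, trigger apoptosis and feed back on p53 itself. Prostaglandin E2 acts through the receptors EP1 to EP4, of which EP2 and EP4 raise cyclic AMP and so activate the transcription factor CREB. In marrow, stromal cells supply the factors that keep blood stem cells in place, and analogues of prostaglandin E2 are known as protectors of blood formation against radiation.

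The 16 libraries held between 38031184 and 68192761 counts. Markers of the labelled cells were high, with Cxcl12, the chemokine of reticular stroma, between 3578 and 15717 CPM, the usual library-size-scaled count, in every library. Blood cell transcripts were also present, with Ptprc, which encodes CD45, between 73.1 and 294 CPM. The libraries of mice 1021 and 1022, replicate 4 of both non-irradiated groups, stood apart, with summed CPM of the osteoblast lineage markers of 28205 and 18463 against at most 10021 in the other 14 libraries. The library of mouse 1021, labelled female, held 161 counts of Xist and 0 of 4 Y-linked genes, while the other 7 female libraries held at least 5524 Xist counts. The 4 called interactions, and 4 early response genes that moved when mouse 1022 was left out, are given below with and without them.

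In the test across all 15168 genes, 4 genes had an interaction at an adjusted p under 0.05, which is 0.0264% of the genes tested, and all 4 lay below 0. They were Ddit4, Cdkn1a, Tnfrsf10b and Sesn2. Cdkn1a, Tnfrsf10b and Sesn2 are in the list of p53 targets described below. Ddit4, an inhibitor of the growth kinase mTORC1, is induced by many stresses and was not placed in that list. No gene had an interaction above 0 at that threshold with edgeR or with DESeq2, although at an unadjusted p under 0.05, which 379 genes (2.5%) met, 175 genes lay above 0 and 204 below 0. A block was also fitted for 4 sets formed from the mouse numbers, each of 1 sex with 1 mouse of each stroma group. To complete them, mice 1021 and 1022, whose numbers lie apart from the rest, were placed with the female mice 790 and 791. With this block 7 genes were called, the same 4 with Plk2, Mdm2 and Ppm1d. The labels do not state what the mice of a set share, and the block was added after the data were seen. In these bulk samples a change in the number of cells of a type and a change in RNA per cell cannot be told apart.

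The promoters of 5 genes are shown, those of the leading gene Ddit4 and of the 4 genes looked up whose windows held a match to the motifs below, and were chosen after the matches were known. Each is the stretch of 250 bases that ends just before the annotated gene start, 5′ to 3′ on the strand of the gene, from RefSeq on GRCm38.p6. Capitals mark matches on either strand to the motifs that follow. CATG followed by any 6 bases and a second CATG is a form of the core letters of a pair of p53 half-sites. TGACGTCA is the full cyclic AMP response element, and TGACG is its shorter form, which the full element also contains.
Cdkn1a, chr17:29090729-29090978, plus strand: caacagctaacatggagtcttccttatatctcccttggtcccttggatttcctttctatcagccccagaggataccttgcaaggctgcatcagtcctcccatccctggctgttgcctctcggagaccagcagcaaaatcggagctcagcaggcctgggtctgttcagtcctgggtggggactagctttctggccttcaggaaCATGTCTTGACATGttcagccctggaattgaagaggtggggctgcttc
Ddit4, chr10:59951771-59952020, minus strand: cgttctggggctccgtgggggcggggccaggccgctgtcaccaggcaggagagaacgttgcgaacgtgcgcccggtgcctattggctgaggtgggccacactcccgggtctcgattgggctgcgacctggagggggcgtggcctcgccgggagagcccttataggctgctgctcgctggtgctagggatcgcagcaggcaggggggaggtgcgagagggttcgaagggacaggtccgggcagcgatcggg
Plk2, chr13:110394794-110395043, plus strand: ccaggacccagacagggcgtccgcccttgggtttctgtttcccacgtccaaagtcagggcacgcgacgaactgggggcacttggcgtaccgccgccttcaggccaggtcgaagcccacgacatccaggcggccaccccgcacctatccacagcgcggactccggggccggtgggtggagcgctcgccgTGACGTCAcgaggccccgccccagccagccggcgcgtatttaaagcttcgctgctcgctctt
Ppm1d, chr11:85311004-85311253, plus strand: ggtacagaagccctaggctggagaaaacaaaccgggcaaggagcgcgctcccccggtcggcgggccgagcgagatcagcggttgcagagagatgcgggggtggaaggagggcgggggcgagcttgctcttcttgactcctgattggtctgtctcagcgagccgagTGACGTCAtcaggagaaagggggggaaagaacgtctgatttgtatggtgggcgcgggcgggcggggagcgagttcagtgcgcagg
Nr4a1, chr15:101266596-101266845, plus strand: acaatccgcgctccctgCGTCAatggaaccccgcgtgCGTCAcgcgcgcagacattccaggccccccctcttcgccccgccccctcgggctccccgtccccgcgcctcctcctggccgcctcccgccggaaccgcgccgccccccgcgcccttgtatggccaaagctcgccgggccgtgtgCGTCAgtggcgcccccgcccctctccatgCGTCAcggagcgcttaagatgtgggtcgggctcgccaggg
The Cdkn1a window held 1 match to the spaced pair of CATG, which 0.49% of 32851 windows of this length hold. The Plk2 and Ppm1d windows each held 1 match to TGACGTCA, found in 1.55% of all windows. The Nr4a1 window held 4 matches to TGACG, found at least once in 17.8% of all windows. No letters matched in the windows of Ddit4, Sesn2, Mdm2, Slc19a2, Lpin1 and Ei24. Other forms of p53 sites, and sites outside these windows, were not searched. Windows were found for 10 of 13 genes looked up, and RefSeq lists a second Cdkn1a start whose window held none of these motifs.

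Ddit4 (chromosome 10, 59949675 to 59951770, mm10) was raised by each agent alone, and both together raised it no further than dmPGE2 alone. Its level was 36.0, 36.5, 27.7 and 22.9 CPM in the 4 non-irradiated vehicle libraries and 214, 253, 229 and 403 CPM in the non-irradiated dmPGE2 libraries. It was 152, 152, 130.7 and 148 CPM in the irradiated vehicle libraries and 293, 338, 156 and 195 CPM in the irradiated dmPGE2 libraries. Every treated library lay above every untreated one, the 2 dmPGE2 groups overlapped, and the libraries given both agents lay above those given irradiation alone. The single changes were 4.77-fold with irradiation and 9.05-fold with dmPGE2, which multiply to 43.1-fold, while the joint change was 8-fold. The interaction was -2.43 log2 units (SE 0.37), with an adjusted p of 0.00565. On the linear scale the joint mean of 245 CPM also lay below the 390 CPM that the sum of the single differences gives, by 144 CPM (SE 60.9).

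Cdkn1a (chromosome 17, 29090986 to 29100722), which encodes the cell cycle inhibitor p21, was also raised by each agent alone. Its level was 35.0, 38.8, 24.9 and 41.9 CPM without either agent and 225, 141.7, 118.2 and 203 CPM after dmPGE2 alone. It was 370, 346, 223 and 325 CPM after irradiation alone and 297, 309, 123.5 and 180 CPM after both. The 3 treated groups overlapped with one another and none overlapped with the untreated group. Unlike for Ddit4, the joint mean of 227 CPM lay below the 316 CPM after irradiation alone, a change that was not called (adjusted p = 0.429). The irradiation change was 8.98-fold in vehicle mice and 1.34-fold in dmPGE2 mice, and the latter was not called (adjusted p = 0.699). The interaction was -2.75 (SE 0.43), with an adjusted p of 0.00565.

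Tnfrsf10b (chromosome 14, 69767472 to 69784411) encodes a death receptor for the ligand TRAIL. Its level was 0.954, 1.75, 1.66 and 2.43 CPM without either agent and 6.35, 2.63, 3.90 and 4.80 CPM after dmPGE2 alone. It was 21.2, 25.3, 20.95 and 39.4 CPM after irradiation alone and 7.15, 7.504, 4.13 and 13.2 CPM after both. Every irradiated vehicle library lay above every irradiated dmPGE2 library, although dmPGE2 alone had raised the gene 2.53-fold. The interaction of -3.10 (SE 0.51) had an adjusted p of 0.00944 and amounts to a joint level 8.56-fold below the product of the single changes.

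Sesn2 (chromosome 4, 132492807 to 132510456) encodes a stress protein that restrains mTORC1. Its level was 18.6, 19.6, 18.4 and 15.7 CPM without either agent and 20.7, 17.8, 25.6 and 26.6 CPM after dmPGE2 alone. It was 124.9, 138.1, 99.5 and 123.9 CPM after irradiation alone and 40.2, 41.9, 33.1 and 46.7 CPM after both. Here dmPGE2 alone gave no called change (adjusted p = 0.543), and the irradiation change was 6.71-fold in vehicle mice and 1.78-fold in dmPGE2 mice. The interaction was -1.91 (SE 0.34), with an adjusted p of 0.0207. This call was the least stable of the 4. It was lost in 11 of 16 fits that left out a library, where the adjusted p ranged from 0.0171 to 0.092 and the estimate from -2.01 to -1.83, and without mice 1021 and 1022 (adjusted p = 0.159). Ddit4, Cdkn1a and Tnfrsf10b were called in all 16 of those fits and without mice 1021 and 1022.

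**Figure D1:**
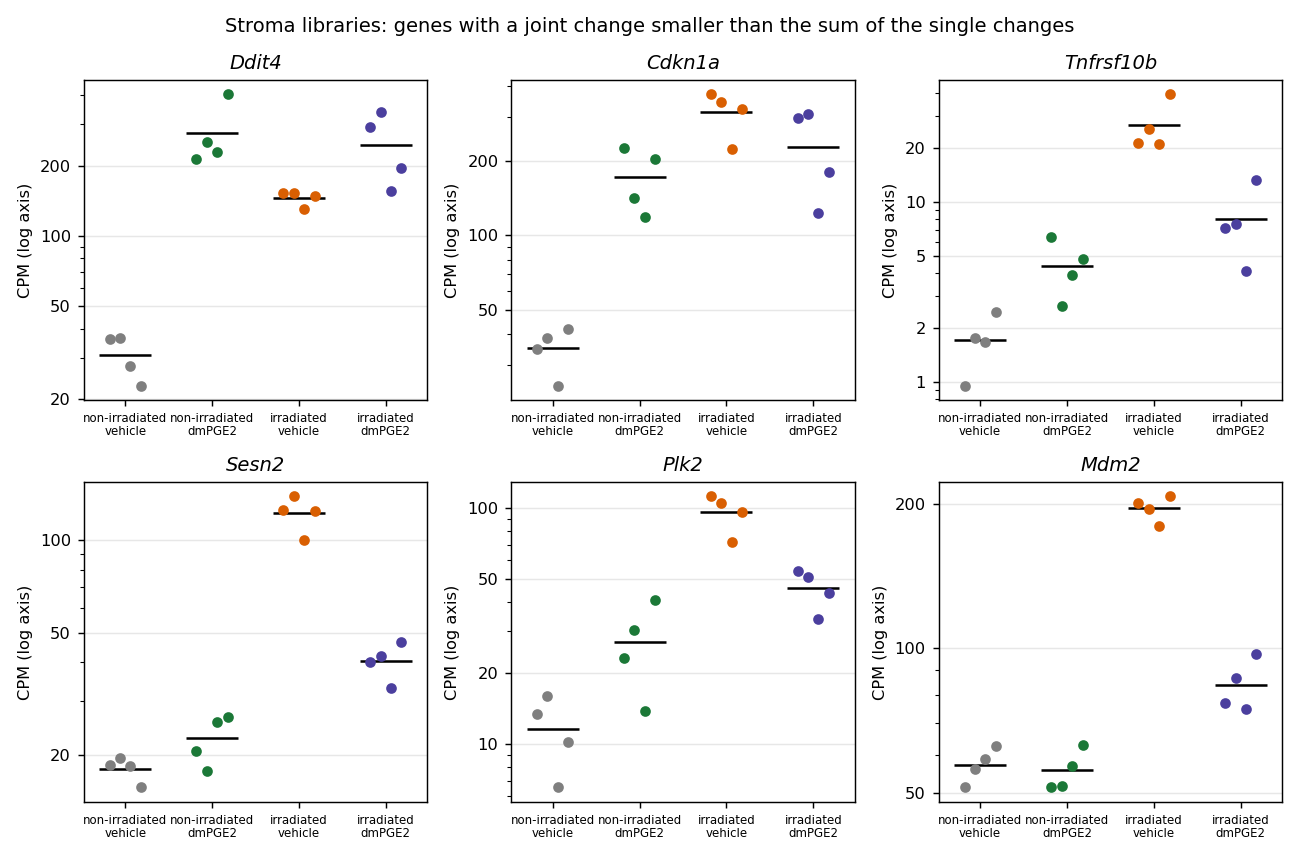
Level of 6 genes in CPM, on log axes, in each of the 16 stroma libraries, with a point for each library and a line for the group mean. For Sesn2, Plk2, Mdm2 and Tnfrsf10b the 4 irradiated dmPGE2 libraries lie below all 4 irradiated vehicle libraries, whereas for Cdkn1a the 3 treated groups overlap and for Ddit4 the 2 dmPGE2 groups do.

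Markers of cell types were summed in the same libraries. The summed CPM of the 15 granulocyte markers ranged from 4444 to 9713 in non-irradiated vehicle, 977 to 10112 in non-irradiated dmPGE2, 2669 to 13598 in irradiated vehicle and 1459 to 13295 in irradiated dmPGE2 libraries. The 15 markers of CXCL12-abundant reticular (CAR) cells summed to 14238 to 24289, 11485 to 19043, 7627 to 22205 and 6228 to 14671 CPM in the same order, and the 14 osteoblast lineage markers to 5227 to 28205, 2936 to 18463, 3918 to 10021 and 1540 to 5399 CPM. No marker of these or of the other 11 marker lists had a called interaction. Over all genes 47.8% of interaction estimates were below 0, with a median of 0.01. Among vessel cells, the 11 pericyte and smooth muscle markers had a median interaction of -0.67 with 10 of 11 estimates below 0. The 16 endothelial markers had one of -0.39 with 14 of 16 below 0. No marker of either list lay below or above 0 at an unadjusted p under 0.05. This lean was not particular to vessel cells. Of the general leukocyte markers 8 of 8 were below 0 (median -0.12), and of the osteoblast lineage markers 12 of 14 (median -0.28). Of the mast cell and basophil markers 1 of 8 was below 0 (median 0.55). In the same group order the pericyte sums were 160 to 281, 170 to 476, 177 to 310 and 117.8 to 352 CPM, and the endothelial sums 578 to 1155, 766 to 1048, 718 to 994 and 471 to 1058 CPM. The part of these cells in the interactions was not tested. With terms for the granulocyte and osteoblast sums in the fit, Ddit4 stood at -2.28, Cdkn1a at -2.57 and Tnfrsf10b at -2.93, all still called, while Sesn2 stood at -1.76 with an adjusted p of 0.0573.

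The next 8 genes by unadjusted p, among genes with a mean of at least 1 CPM, all had interactions below 0, and none passed the adjusted threshold with edgeR. They were Ppm1d, Mdm2, Slc19a2, Plk2, Lpin1, 9230114K14Rik, Ei24 and Mybl1. DESeq2 called 15 genes, which included the 4 above and all 8 of these.

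Mdm2 (chromosome 10, 117688875 to 117710758), the ubiquitin ligase that degrades p53, showed the pattern with little spread. Its level was 51.3, 56.0, 58.6 and 62.5 CPM without either agent and 51.3, 51.6, 56.9 and 62.8 CPM after dmPGE2 alone. It was 201, 196, 180 and 208 CPM after irradiation alone and 76.8, 86.5, 74.8 and 97.2 CPM after both. The 2 non-irradiated groups overlapped fully, and a wide gap separated the 2 irradiated groups. The interaction was -1.19 (95% interval -1.67 to -0.71), with an adjusted p of 0.0632. The irradiation change was 3.43-fold in vehicle mice and 1.51-fold in dmPGE2 mice.

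Ppm1d (chromosome 11, 85311254 to 85347071) encodes a phosphatase that switches off p53 and the DNA damage kinases. Its level was 41.8, 43.9, 37.97 and 39.4 CPM without either agent and 41.7, 41.6, 57.3 and 43.3 CPM after dmPGE2 alone. It was 78.3, 76.3, 80.6 and 75.5 CPM after irradiation alone and 45.8, 48.5, 54.6 and 45.8 CPM after both. The irradiated dmPGE2 libraries lay below every irradiated vehicle library and above every non-irradiated library except replicate 3 of non-irradiated dmPGE2, which stood apart at 57.3 CPM. The interaction was -0.85 (SE 0.16), with an adjusted p of 0.0531.

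Plk2 (chromosome 13, 110395044 to 110400843), a polo-like kinase, was raised by each agent alone, as were Ddit4 and Cdkn1a. Its level was 13.4, 15.9, 6.54 and 10.2 CPM without either agent and 23.2, 30.4, 13.8 and 40.7 CPM after dmPGE2 alone. It was 111.9, 105, 71.5 and 95.9 CPM after irradiation alone and 54.3, 51.1, 33.7 and 43.6 CPM after both. All 4 libraries given both agents lay below all 4 given irradiation alone. The interaction was -2.29 (SE 0.48), with an adjusted p of 0.129.

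Slc19a2 (chromosome 1, 164249046 to 164265385), a thiamine transporter, kept part of its response. Its level was 7.16, 7.59, 7.51 and 8.00 CPM without either agent and 10.6, 9.67, 12.8 and 7.61 CPM after dmPGE2 alone. It was 69.8, 58.0, 63.7 and 97.8 CPM after irradiation alone and 35.5, 28.2, 23.02 and 43.7 CPM after both. Irradiation raised it 9.48-fold in vehicle mice and 3.15-fold in dmPGE2 mice, and the latter change was also called (adjusted p = 0.000592). The interaction was -1.59 (SE 0.32), with an adjusted p of 0.0632.

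The other 4 of these genes differed in size more than in form. Lpin1, a phosphatidate phosphatase, had group means of 57.4, 62.9, 138.9 and 71.9 CPM in the order non-irradiated vehicle, non-irradiated dmPGE2, irradiated vehicle and irradiated dmPGE2. In the same order, Ei24 stood at 74.1, 75.1, 122.6 and 83.8 CPM and the transcription factor gene Mybl1 at 2.95, 2.73, 13.2 and 3.37 CPM. The interactions were -1.09 for Lpin1, -0.57 for Ei24 and -1.88 for Mybl1, and -1.56 for 9230114K14Rik. For each of these genes all 4 libraries given both agents lay below all 4 given irradiation alone, as in 4.98% of all genes. The genes were chosen by the interaction p, which uses the same libraries, so this gap is a description.

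A list of 55 p53 targets, of which 52 were measured, was then described as a whole. Of these 52, 3 had a called interaction, all below 0. At an unadjusted p under 0.05, 23 of 52 (44.2%) lay below 0 and 0 above, against 1.34% and 1.15% of all genes. Many other genes raised by irradiation also lay below 0, as given further below. Those genes were chosen by libraries that the interaction also uses. Whether the lower estimates are particular to the p53 list was therefore not tested. The estimate was below 0 for 47 of 52 (90.4%), against 47.8% of all genes, and its median was -0.60 against 0.01 over all genes. In 24 of 52 (46.2%) every irradiated dmPGE2 library lay below every irradiated vehicle library, against 4.98% of all genes. Irradiation alone raised 27 of the 52 and lowered 0, where 0.659% of all genes rose, and 4 of these 27 were also called higher with irradiation in dmPGE2 mice, where 0.0461% of all genes rose. The median irradiation change of the 52 was 0.87 log2 units in vehicle mice and 0.22 in dmPGE2 mice.

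**Figure D2:**
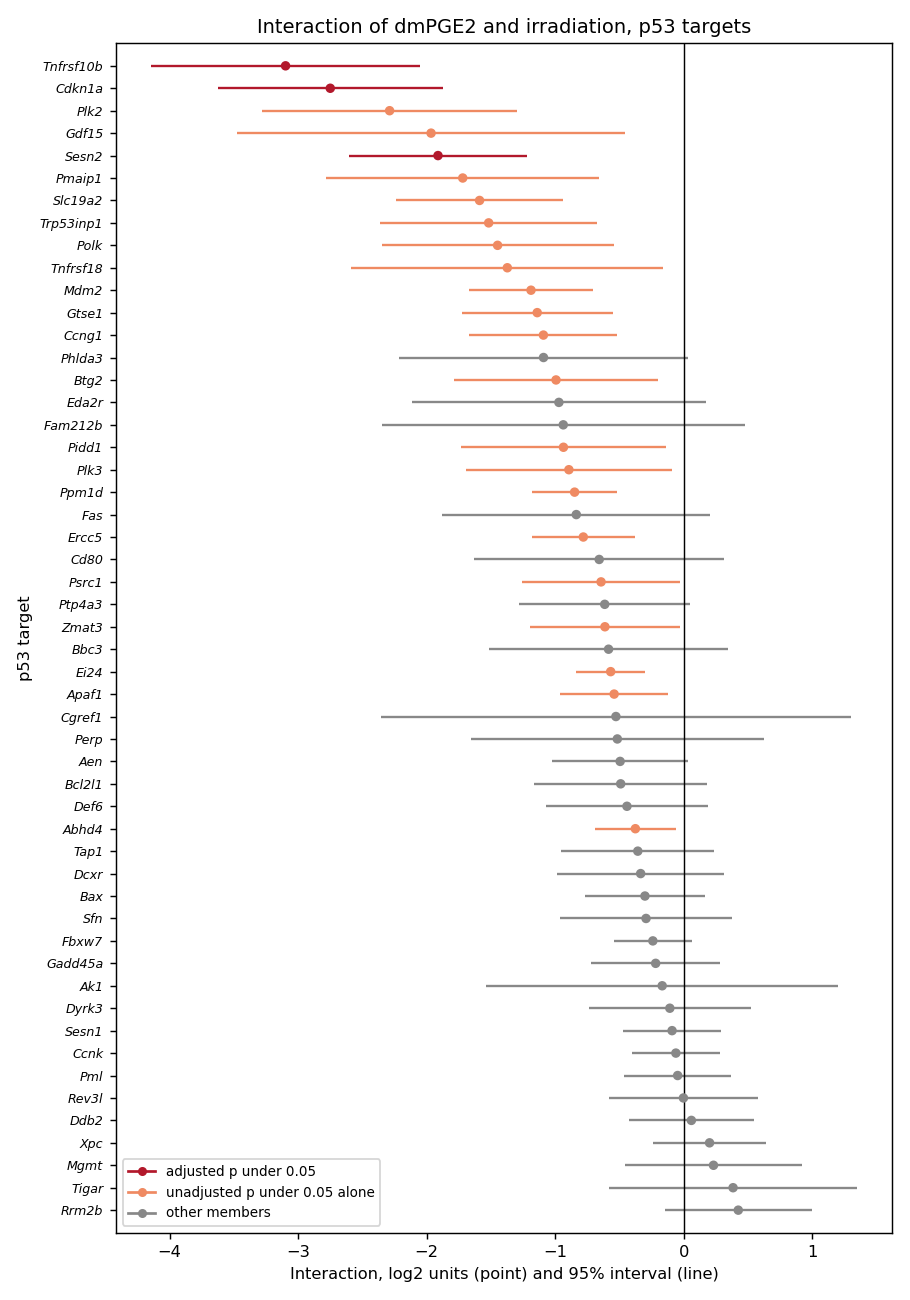
Interaction estimate in log2 units (point) with its 95% interval (line) for each of the 52 p53 targets measured, ordered by the estimate. The estimates run from -3.10 for Tnfrsf10b to 0.42 for Rrm2b, with 47 of 52 below 0.

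Within the list, genes differed in how dmPGE2 alone acted on them. In non-irradiated mice dmPGE2 raised 5 of the 52 and lowered 1, where 1.77% and 1.99% of all genes rose and fell. The 5 were Cdkn1a, Tnfrsf10b, Plk2, the related kinase gene Plk3, and Gadd45a, a growth arrest gene that irradiation did not raise here (log2 change -0.19, adjusted p = 0.822). The 1 that fell was the repair gene Xpc. Other targets had a flat baseline, as in Mdm2. Ccng1, which encodes cyclin G1, had group means of 120, 110, 485 and 209 CPM, and Trp53inp1, a cofactor of p53, of 102, 102, 275 and 97.4 CPM, in the order given above. Their interactions were -1.09 and -1.52, with adjusted p of 0.569 and 0.715.

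A further set had lower values after dmPGE2 in both arms. Phlda3, an inhibitor of the survival kinase Akt, stood at 10.04, 18.9, 15.04 and 16.3 CPM without either agent and at 9.85, 7.61, 4.72 and 8.59 CPM after dmPGE2 alone. It stood at 106, 138.03, 69.0 and 83.9 CPM after irradiation alone and at 26.5, 31.2, 8.88 and 28.3 CPM after both. dmPGE2 libraries were thus lower than vehicle libraries with irradiation, and also without it. The interval of its interaction, -2.22 to 0.04, includes 0. For Eda2r, a receptor of the tumour necrosis factor family, the interval was -2.11 to 0.17, and irradiation raised it in dmPGE2 mice as well (log2 change 2.995, adjusted p = 0.000592). Fam212b likewise rose with irradiation in dmPGE2 mice (log2 change 3.39, adjusted p = 0.00293), with an interval of -2.35 to 0.48.

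The genes of cell death within the list were not uniform. Pmaip1, which encodes the BCL2 antagonist NOXA, stood at 5.29, 4.35, 3.69 and 3.32 CPM without either agent and at 5.35, 8.53, 3.87 and 10.5 CPM after dmPGE2 alone. It stood at 39.0, 26.3, 19.2 and 25.5 CPM after irradiation alone and at 18.5, 16.1, 9.78 and 11.4 CPM after both. All 4 libraries given both agents lay below all 4 given irradiation alone, and the interaction was -1.72 (unadjusted p = 0.00263). Bbc3, which encodes the related protein PUMA, had an interval from -1.52 to 0.35 and was called higher with irradiation in dmPGE2 mice (log2 change 2.05). Of the 17 pro-apoptotic genes measured, 6 are listed p53 targets too. At an unadjusted p under 0.05, 4 of the 17 (23.5%) lay below 0 and 0 above, against 1.34% and 1.15% of all genes. Of the 14 anti-apoptotic genes, 1 lay below 0 at that threshold, the ubiquitin ligase gene Birc3 (-0.62, unadjusted p = 0.0286).

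In dmPGE2 mice irradiation raised 7 genes and lowered 0, against 100 and 17 in vehicle mice (0.659% and 0.112% of all genes, 0.771% together). The 7 were Bbc3, Ddias, Eda2r, Fam212b, Nfkbid, Slc19a2 and Zfp750. Over the 100 genes called higher in vehicle mice, the median irradiation change was 1.29 log2 units there and 0.45 in dmPGE2 mice, and 98 of 100 interaction estimates were below 0. The 73 of these genes outside the p53 list had medians of 1.21 and 0.40. At an unadjusted p under 0.05, 45 of these 73 and 21 of the 27 in the p53 list lay below 0, against 1.34% of all genes. Of the 25 p53 targets not called higher with irradiation, 2 did. Because genes chosen for a high irradiated vehicle level share those libraries with the interaction, their estimates lean below 0 by choice, and no test is given.

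The genes that cyclic AMP and CREB induce were described in the same way. Of 39 measured, 16 rose with dmPGE2 alone, 20 rose with both agents where 3.56% of all genes rose, and 0 had a called interaction. Without irradiation dmPGE2 changed 3.76% of all genes and raised 1.77%. At an unadjusted p under 0.05, 5 of 39 (12.8%) lay below 0 and 0 above, against 1.34% and 1.15% of all genes. The median interaction was -0.45. Nr4a1, an orphan nuclear receptor gene that cyclic AMP induces within minutes, stood at 20.7, 34.4, 23.8 and 13.6 CPM without either agent and at 373, 308, 310 and 724 CPM after dmPGE2 alone. It stood at 60.1, 45.8, 43.9 and 26.95 CPM after irradiation alone and at 376, 471, 230 and 177 CPM after both. The 2 dmPGE2 groups overlapped and lay above both vehicle groups. Its interaction was -1.52 (95% interval -2.80 to -0.24, unadjusted p = 0.0216). Without mouse 1022, whose 724 CPM stood apart, it was -1.07 (SE 0.59). Rasd1, a small GTPase gene, had group means of 0.786, 11.7, 2.02 and 10.1 CPM and an interaction of -1.63 (unadjusted p = 0.00418). Sik1, a salt-inducible kinase gene that feeds back on CREB signalling, had means of 57.9, 197, 99.1 and 158 CPM and an interaction of -1.10 (unadjusted p = 0.00354), which moved to -0.68 (SE 0.26) without mouse 1022.

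Not every gene of that list shared this form. Tob1, an antiproliferative gene, was not raised by dmPGE2 and followed the p53 targets, at 14.2, 14.7, 16.5 and 18.6 CPM without either agent and 14.97, 13.9, 10.5 and 23.5 CPM after dmPGE2 alone. It stood at 39.0, 34.2, 39.6 and 34.7 CPM after irradiation alone and at 21.6, 19.5, 20.5 and 17.97 CPM after both, with no overlap between these 2 groups. Its interaction was -0.85 (SE 0.22), with an adjusted p of 0.583. Crem, a CREB family repressor gene, had means of 9.33, 31.7, 11.9 and 33.9 CPM and an interaction of -0.28 (unadjusted p = 0.479). Adamts1, a matrix protease gene of another list, had means of 78.5, 1076, 81.2 and 836 CPM with an interval from -1.72 to 0.77.

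**Figure D3:**
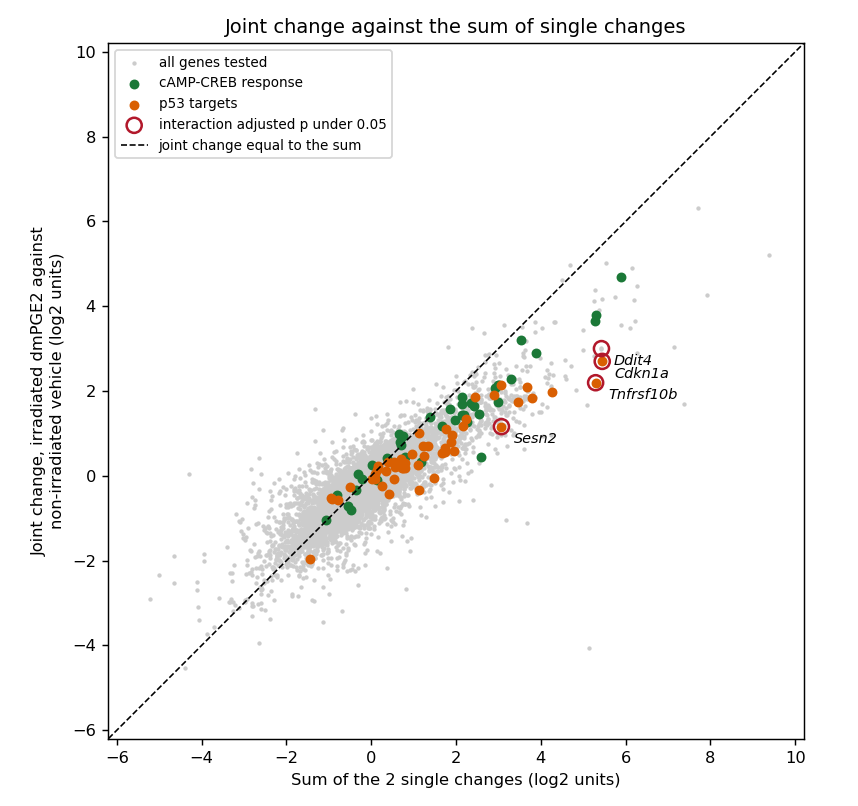
Joint change of irradiated dmPGE2 against non-irradiated vehicle (vertical axis) against the sum of the 2 single changes (horizontal axis), both in log2 units, for all 15168 genes, with p53 targets, cAMP-CREB response genes and the 4 called genes marked. The 4 called genes lie below the line of equality, on which the joint change equals the sum, and so do 47 of 52 p53 targets.

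Among immediate early genes, 6 of 37 (16.2%) lay below 0 at an unadjusted p under 0.05 and 1 above, with a median of -0.56. Over all genes 1.34% lay below 0 and 1.15% above at that threshold. The 1 above was Myc, the growth regulator, with 0.96 (unadjusted p = 0.00145, adjusted p = 0.918), the smallest adjusted p of any gene above 0. Btg2, an antiproliferative gene that is also a p53 target, stood at 179, 153, 106 and 109 CPM without either agent and at 213, 230, 234 and 365 CPM after dmPGE2 alone. It stood at 381, 307, 405 and 200 CPM after irradiation alone and at 335, 377, 343 and 192 CPM after both. The 3 treated groups overlapped, as for Cdkn1a, and the interaction was -0.99 (unadjusted p = 0.0161). Fosl2, a subunit of the AP-1 factor, had an interaction of -1.02 (unadjusted p = 0.0426). Mouse 1022 was again the highest of its group for both, and without it the interactions were -0.77 (SE 0.38) for Btg2 and -0.65 (SE 0.46) for Fosl2.

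The list of NF-kB targets and inflammatory cytokines had 45 measured genes, of which 12 rose with irradiation in vehicle mice, where 0.659% of all genes rose. At an unadjusted p under 0.05, 10 of 45 (22.2%) lay below 0 and 0 above, against 1.34% and 1.15% of all genes, and the median was -0.56. Cd40, a receptor of antigen-presenting cells, stood at 1.62, 2.43, 1.59 and 1.87 CPM without either agent and at 1.23, 1.47, 1.59 and 3.12 CPM after dmPGE2 alone. It stood at 25.6, 17.2, 16.6 and 21.9 CPM after irradiation alone and at 2.64, 3.15, 3.39 and 6.24 CPM after both. The 2 irradiated groups did not overlap, and the interaction was -2.34 (unadjusted p = 0.0049). Relb, a subunit of NF-kB, had means of 11.9, 13.4, 39.1 and 19.3 CPM and an interaction of -1.19 (unadjusted p = 0.00935). Cd83, a maturation marker of dendritic cells, had means of 6.13, 9.67, 16.6 and 11.6 CPM and an interaction of -1.14 (unadjusted p = 0.0128). Of the 45 estimates 34 (75.6%) were below 0, against 47.8% of all genes, so the list was not uniform. Nfkbid, an atypical inhibitor of NF-kB with an interaction of 0.01, is described below.

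**Figure D4:**
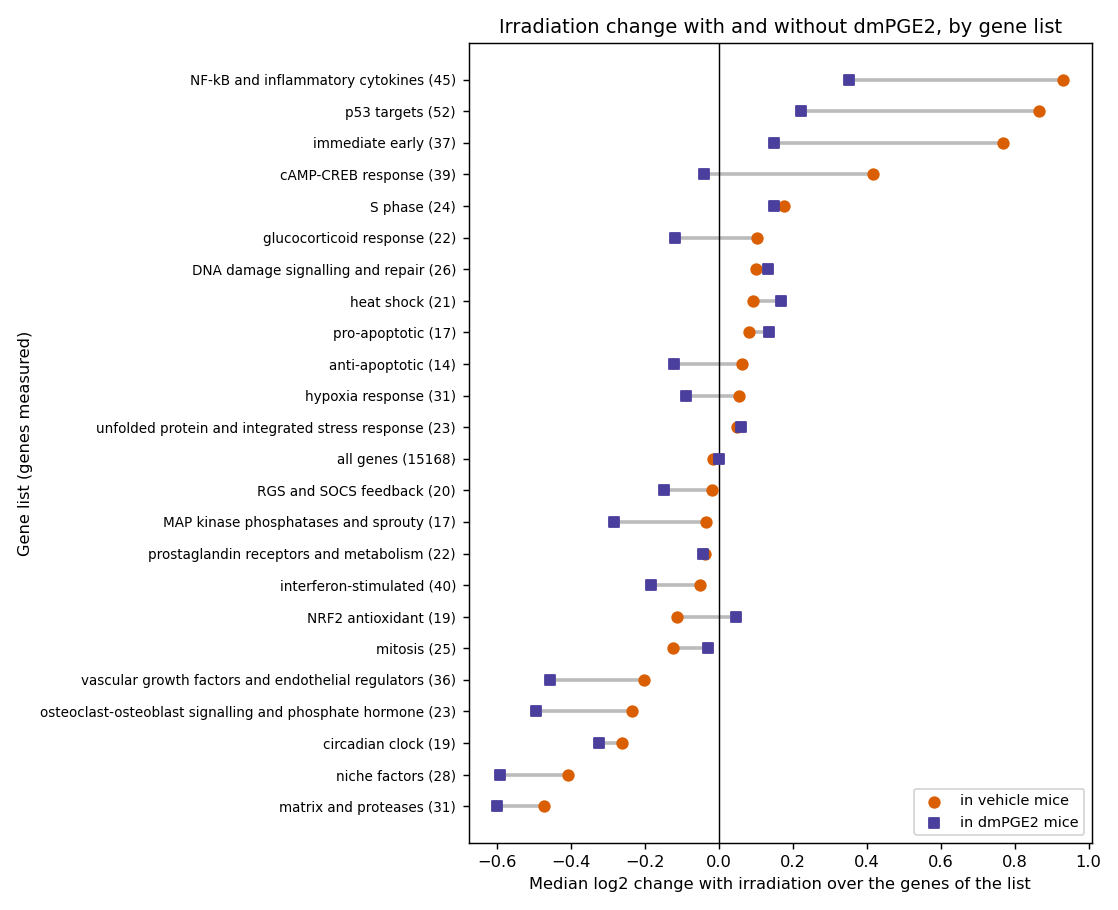
Median log2 change with irradiation over the genes of each of 23 lists and over all genes, in vehicle mice (circles) and in dmPGE2 mice (squares), with the number of genes measured in brackets. The medians of the p53 targets are 0.87 and 0.22, and those of all genes are -0.01 and 0.00.

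Genes whose joint change was close to the sum of the single changes were sought among the 1404 genes (9.26% of all) that changed with both agents against the untreated group, 540 higher and 864 lower (3.56% and 5.7%). For 812 of these (57.8%) the 95% interval of the interaction lay within 1 log2 unit of 0, 361 of them higher and 451 lower. The same held for 57.4% of all genes, so the share is that of the background. The width of 1 is a choice, and within 0.5 log2 units the count was 232. At the other end, 86 of the 1404 had an interval that excluded 0 on the side of a smaller joint change. Over all genes 379 (2.5%) met an unadjusted p under 0.05 in either direction. No count for this side alone was made over all genes, so the 86 has no matched background.

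Kdm6b (chromosome 11, 69398518 to 69413675), a histone demethylase gene, was raised by each agent and raised further by both. Its level was 33.8, 40.9, 46.4 and 47.4 CPM without either agent and 72.3, 89.0, 80.6 and 95.6 CPM after dmPGE2 alone. It was 68.5, 67.9, 80.5 and 76.8 CPM after irradiation alone and 103, 181, 97.9 and 111.7 CPM after both. Every library given both agents lay above every library of the other 3 groups. The single changes multiply to 3.51-fold and the joint change was 2.90-fold, with an interval of the interaction from -0.76 to 0.21. On the linear scale the joint mean of 123.4 CPM lay 7.66 CPM (SE 20.6) above the sum.

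Nfkbid (chromosome 7, 30423304 to 30428746) responded to irradiation alone. Its level was 6.72, 9.12, 5.24 and 5.64 CPM without either agent and 5.15, 10.8, 3.85 and 8.43 CPM after dmPGE2 alone. It was 23.4, 17.2, 22.8 and 20.1 CPM after irradiation alone and 17.1, 24.7, 18.8 and 28.4 CPM after both. The irradiated groups overlapped each other and neither overlapped with a non-irradiated group. The irradiation change was 3.13-fold in vehicle mice and 3.15-fold in dmPGE2 mice, and the interval of the interaction ran from -0.84 to 0.86.

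The other genes with the largest joint changes in this class all fell. Arrdc4, an arrestin-domain gene, stood at 175, 111, 215 and 304 CPM without either agent and at 87.1, 49.0, 35.3 and 136.3 CPM after dmPGE2 alone. It stood at 142.8, 146, 128.5 and 111 CPM after irradiation alone and at 74.04, 53, 29.3 and 58.4 CPM after both. The 2 irradiated groups did not overlap, while the non-irradiated ones did, and irradiation alone gave no called change (adjusted p = 0.618). Nynrin, Snx33, Zfp111, Zfp708, Tlr4, Zfp455 and Dtx4 had joint changes between -2.0 and -1.58 log2 units and interactions between -0.13 and 0.20. Irradiation alone was called for none of these 7, and dmPGE2 alone for all but Dtx4.

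**Figure D5:**
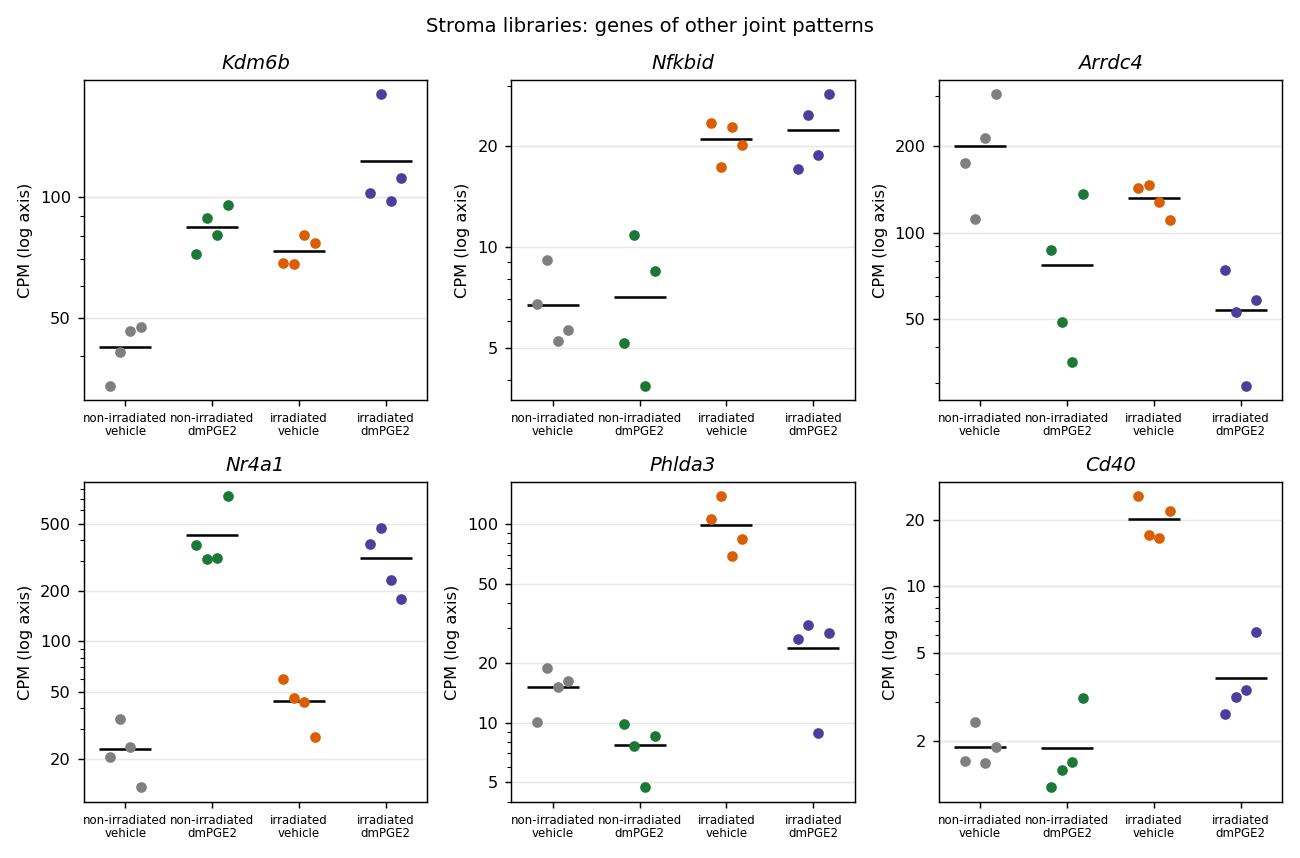
Level of 6 genes in CPM, on log axes, in each of the 16 stroma libraries, with a point for each library and a line for the group mean. Kdm6b stands highest in the 4 libraries given both agents, Nfkbid follows irradiation in both arms, and Cd40 shows the 4 irradiated vehicle libraries above all others.

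A stricter reading asks for genes that each agent changed alone. There were 19 such genes, 13 raised by both agents, 3 lowered by both and 3 moved in opposite directions, and 7 of the 19 had an interval within 1 log2 unit of 0, 4 of them with a called joint change. Selection on both single changes uses the same untreated libraries as the interaction, so these counts are descriptions.

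Among genes raised by both, Nfkbiz, a nuclear inhibitor of NF-kB, had group means of 20.5, 53.2, 58.6 and 80.9 CPM. Its joint level was 3.99-fold above baseline against 7.79-fold for the product of the single changes (interaction -0.96, 95% interval -1.85 to -0.08), while on the linear scale it lay 10.3 CPM (SE 20.4) below the sum. Dusp8, a MAP kinase phosphatase gene, had means of 9.28, 21.5, 32.3 and 28.9 CPM and an interaction of -1.38 (unadjusted p = 0.00201). Ptp4a1, a phosphatase gene, had means of 7.73, 12.9, 13.1 and 12.5 CPM, so that both agents together gave no more than either alone. Wsb1, a ubiquitin ligase subunit gene, had means of 50.6, 70.2, 73.6 and 77.5 CPM, and Rasgef1b, an exchange factor gene, of 3.34, 8.78, 8.13 and 11.01 CPM. Their interactions were -0.80 for Ptp4a1, -0.39 for Wsb1 and -0.95 for Rasgef1b.

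Msantd4 and Spg20, lowered by both agents, mirrored this form. Msantd4 had means of 29.2, 20.6, 20.001 and 19.4 CPM and an interaction of 0.46 (unadjusted p = 0.00235), and Spg20 of 46.2, 32.9, 33.8 and 31.9 CPM and 0.40 (unadjusted p = 0.00728). In both genes the 3 treated groups overlapped and lay below the untreated one. Zfp958 and Zfp456, zinc finger genes, were raised by irradiation and lowered by dmPGE2. Zfp958 had means of 13.7, 8.05, 21.3 and 12.7 CPM, so that the joint level came back to near the untreated one, with an interaction of 0.03 (95% interval -0.38 to 0.44). The interval of Zfp456, -0.92 to 0.28, also lay within 1 log2 unit of 0.

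Of 22 glucocorticoid response genes 3 (13.6%) lay below 0 at an unadjusted p under 0.05, against 1.34% of all genes. These were Ddit4, Cdkn1a and the leucine zipper gene Tsc22d3 (-0.63). In this list 20 of 22 (90.9%) estimates were below 0, against 47.8% of all genes, and the median was -0.29. Of 40 interferon-stimulated genes 1 (2.5%) lay below 0 at an unadjusted p under 0.05, near the 1.34% of all genes, and 7 fell with both agents, where 5.7% of all genes fell, among them Ifit3b, with group means of 4.65, 2.27, 2.36 and 1.34 CPM, and Ifit3. Of 28 niche factors 1 (3.57%) lay below 0 at an unadjusted p under 0.05, against 1.34% of all genes. With both agents 5 of the 28 fell, where 5.7% of all genes fell. Among these 5 were Kitl, the ligand of the stem cell receptor KIT, with 469, 281, 249 and 163 CPM, and Vcam1, an adhesion molecule, with 858, 544, 730 and 388 CPM. Kitl and Vcam1 had intervals of -0.93 to 1.17 and -1.18 to 0.70, so an interaction of about 1 log2 unit could not be seen at this spread. The CAR cell markers fell beside them, 7 of 15 with both agents, where 5.7% of all genes fell. Of 25 mitosis genes 8 had an estimate below 0. At an unadjusted p under 0.05, 0 of the 25 lay below 0 and 2 above, against 1.34% and 1.15% of all genes. Aurka, a mitotic kinase gene, had means of 92.0, 85.8, 46.9 and 78.1 CPM and an interaction of 0.85 (unadjusted p = 0.0167). Of 26 genes of DNA damage signalling and repair 0 lay on either side at that threshold. Of these 26 estimates 7 were below 0, and the median was 0.07.

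The prostaglandin receptors themselves gave no called interaction. Ptger4, the receptor EP4, had means of 25.9, 41.5, 25.2 and 35.3 CPM and an interval from -0.98 to 0.66. Ptger2, the receptor EP2, stood at 2.34, 1.398, 3.03 and 2.20 CPM without either agent and at 0.417, 0.925, 0.432 and 1.11 CPM after dmPGE2 alone. It stood at 2.44, 2.03, 2.81 and 3.03 CPM after irradiation alone and at 0.725, 0.720, 1.31 and 0.453 CPM after both. All dmPGE2 libraries lay below all vehicle libraries, and the interval of the interaction ran from -1.40 to 1.3. The estimate was 0.17 for Ptger3, the receptor EP3, and -0.46 for Ptger1, the receptor EP1, which stood below 1 CPM in every group mean.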

How the data were processed

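RNA of magnetically enriched marrow stroma was measured in 32 mouse libraries, of which 16 form the 4 groups compared here. The raw counts per gene were deposited by the authors without normalisation, per the file headers. The submitters' processing notes name the build mm10, the aligner STAR (2.5) and the counting tool featureCounts from Subread (1.5.1). They also name edgeR (3.36.0) and, for read quality, FastQC (0.11.5). The strand setting and the annotation are not given in the sources used here. Overlapping genes, antisense genes and near-identical copies are therefore uncertain. The labels write PGE, read as dmPGE2 from the series title, and they include non-irradiated mice given PGE, which the design text does not mention.

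All 15168 genes were fitted with edgeR 4.0.16 under R 4.3.3 (limma 3.58.1), with TMM factors and the robust quasi-likelihood test, in 1 model of the 8 stroma groups plus sex with 23 residual degrees of freedom. Benjamini-Hochberg adjustment ran over all genes, and a change is called at an adjusted p under 0.05. The p-values measure the spread between mice. CPM are counts scaled to TMM-adjusted library sizes, and intervals are at 95%. The 4 comparisons share libraries, so no agreement between them is given as a result. DESeq2 1.42.0, limma voom and a block for sets of mouse numbers served as alternatives, among others.

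Genes were named by rule: all called interactions, the 12 smallest p among genes of at least 1 CPM, 12 genes called for both single changes, the 10 largest joint changes with an interval within 1 log2 unit, up to 3 per list and Ptger1 to Ptger4. Further p53 targets, Myc, Crem and the 7 genes called with irradiation in dmPGE2 mice were named after their values were seen. The members and the 37 lists were chosen with earlier results of these data known. The fit was tested on simulated data for the interaction, with 40 changed genes of each size, drawn from genes of at least 5 CPM, among 15168. It called 92.5% of genes lowered by 2.5 log2 units, 82.5% by 2 and 50% by 1. Of genes raised by 2 it called 90%, of those raised by 1 42.5%, and it called 7 unchanged genes. The simulated data held more changed genes than the 4 called here. This eases the adjusted threshold, so these shares are not the power in the data.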

Additional observations from a re-analysis of the deposited data

Results flagged for a closer look

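The change with dmPGE2 differed between irradiated and non-irradiated mice for 4 genes by the test of the interaction itself, with -2.43 log2 units for Ddit4, -2.75 for Cdkn1a, -3.10 for Tnfrsf10b and -1.91 for Sesn2.

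Among 348 groups of 4 libraries, over the 87 genes named by rule, 23 (6.61%) held a library far from the other 3, where chance flags about 1 in 20 groups. In replicate 4 of the non-irradiated dmPGE2 group (mouse 1022), which stands apart by its osteoblast markers, values above the other 3 were 365 CPM for Btg2, 724 for Nr4a1, 454 for Fosl2, 42.1 for Hpgd, 233 for Per1, 14637 for Col1a1 and 4.18 for Zfp456. In replicate 4 of the non-irradiated vehicle group (mouse 1021) they were 24364 CPM for Col1a1, 32.1 for Bhlhe40, 7.15 for Osgin1 and 3.61 for Zfp455. These 2 libraries held 11 of the 23 values.

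Elsewhere among non-irradiated dmPGE2 libraries, Ppm1d reached 57.3 CPM in replicate 3, Fgf23 31.3 CPM in replicate 1 and Ptger4 55.5 CPM in replicate 2. In irradiated vehicle libraries, Zfp456 stood at 16.01 CPM and Rasd1 at 2.46 CPM in replicate 4, Snx33 at 22.9 CPM and Tnfaip6 at 3.96 CPM in replicate 2, and Edn1 at 0.429 CPM in replicate 3. In irradiated dmPGE2 libraries, Kdm6b stood at 181 CPM and Birc3 at 70.8 CPM in replicate 2, Aurka at 105 CPM in replicate 3, and Mcl1 was low at 291 CPM in replicate 4.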

How the results depend on the processing

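The count of called interactions, 4 in the fit reported, was 15 with DESeq2, 7 with a term for the run of mouse numbers, 7 with a block for the 4 sets of mouse numbers, and 3 to 6 when each library was left out. It was 0 in males alone, in females alone and in mice 715 to 730 alone, fits with 2 libraries a group. Estimates of the 4 genes were below 0 in every setting run. p53 targets below 0 at an unadjusted p under 0.05 numbered 15 in males alone and 19 to 27 with a library left out, against 23. The block, chosen after seeing the data, gave 258 calls for irradiation in vehicle mice, 1152 for dmPGE2 without irradiation, 3086 for both agents and 2288 genes within 1 log2 unit, and among the named genes and p53 targets it lost no called interaction. Terms for granulocyte and osteoblast markers, also chosen after seeing the data, left 4 calls, with Slc19a2 in and Sesn2 out. Voom lost Sesn2 as well.

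Genes called with irradiation in vehicle mice, 100 higher and 17 lower, numbered 248 with DESeq2 (187 higher and 61 lower), 70 with the 16 libraries alone, 213 with the run term, 311 with voom, and 69 to about 1.3e+02 (rounded) with a library left out, lowest without non-irradiated vehicle replicate 4. For dmPGE2 without irradiation, 570, they numbered 969, 229, 1028 and 861 in the same order, 334 without mice 1021 and 1022, and 293 to 735 with a library left out. Both agents together, 1404, gave 2507 with DESeq2, 542 with the 16 libraries, 603 without mice 1021 and 1022, and 518 to 2154 with a library left out, lowest without non-irradiated vehicle replicate 4 and highest without its replicate 1. The genes within 1 log2 unit, 812, numbered 1439, 248 and 331 in those 3 settings, 232 within 0.5 log2 units, and 280 to 1260 with a library left out. The smaller fits hold fewer libraries, and the cause of the other shifts was not tested. The labels give no replicate numbers, so the pairing within these sets is a reading of the mouse numbers. With 4 libraries a group, the median half-width of the interval was 0.49 log2 units among 10840 genes of at least 5 CPM.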

Other observations

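Other irradiated stroma groups of the series, which the interaction does not use for its contrast, gave levels of the same genes after other prostaglandin receptor agonists. Sesn2 stood at 107 ± 21.6 CPM (SD, n = 4) after the EP3 agonist sulprostone, 78.9 ± 24.5 after the EP4 agonist rivenprost, 42.7 ± 9.004 after both and 80.9 ± 31.01 after misoprostol. These compare with 121.6 ± 16.1 CPM in irradiated vehicle and 40.5 ± 5.61 CPM in irradiated dmPGE2 mice. Mdm2 stood at 189 ± 32.7, 132.1 ± 36.1, 88.3 ± 15.4 and 135.3 ± 25.9 CPM in the same 4 groups, against 196 ± 11.8 and 83.8 ± 10.3 CPM. Tnfrsf10b stood at 28.8 ± 5.71, 18.7 ± 10.2, 9.10 ± 2.49 and 19.4 ± 5.02 CPM, against 26.7 ± 8.70 and 8.00 ± 3.80 CPM. The called genes Cdkn1a and Ddit4 differed from these. Cdkn1a stood at 368 ± 104.5, 325 ± 64.0, 240 ± 65.1 and 328 ± 124.6 CPM, against 316 ± 64.6 and 227 ± 90.5 CPM. Ddit4 means lay above irradiated vehicle in all of these groups, at 172 ± 40.6, 243 ± 70.7, 246 ± 79.3 and 209 ± 57.7 CPM, against 146 ± 10.3 and 245 ± 84.4 CPM. The interaction cannot be formed for these agonists, since no non-irradiated group given them was analysed here.

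Secreted signals that dmPGE2 raised gave wide intervals. Fgf23, a phosphate hormone of bone, had group means of 0.645, 13.2, 1.94 and 7.57 CPM in the order non-irradiated vehicle, non-irradiated dmPGE2, irradiated vehicle and irradiated dmPGE2, with an interaction of -2.34 (95% interval -4.13 to -0.55, unadjusted p = 0.0123). Its non-irradiated dmPGE2 mean was carried by replicate 1 at 31.3 CPM, the other 3 standing between 7.03 and 7.32 CPM, and without that library the interaction was -1.63 (SE 0.84). Without mice 1021 and 1022 it was -3.39 (SE 0.94). The cytokine genes Lif and Il6 had means of 2.86, 61.2, 7.01 and 85.4 CPM and of 7.99, 70.6, 10.9 and 88.5 CPM, with intervals of -2.96 to 0.45 and -2.47 to 1.06. Apold1, an endothelial early response gene, had means of 5.17, 90.6, 8.90 and 56.5 CPM and an interaction of -1.54 (unadjusted p = 0.00501).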
